A study of Mus musculus with 24 samples.

Results

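The 40 genes described here act in the G2 phase of the cell cycle and in mitosis, from cyclin-dependent kinase 1 (CDK1) and its cyclins to the kinetochore, the spindle, cytokinesis and chromosome condensation. They were taken as a named list, by function and not by a threshold on the values, and 39 of them had a value among the 18193 genes of the series. Ccnb1, which encodes cyclin B1, had none, because no probe set named it alone. RNA had been measured on 24 Affymetrix arrays, which form 8 groups of 3 biological replicates. The cells were CD4+ T cells from 2D2 mice on a C57BL/6 background, and every group carried the same transgene, a T cell receptor that recognises a myelin antigen. They had been primed with plate-bound antibodies to CD3 and CD28 under Th1 conditions, which favour interferon-gamma producing helper cells. After 48 hours they were taken off the antibodies and expanded for 2 days. In 4 groups the cells were then stimulated again with the same antibodies for 4 hours (activated cells), and in the other 4 they were not (resting cells). Within each state the cells had been grown with DMSO, with Control-768, with 0.25 µM I-BET-762 or with 0.5 µM I-BET-762. I-BET-762 inhibits the BET bromodomain proteins, readers of acetylated histones, and Control-768 is, by its name, the control compound. The sources used here do not say at what concentration Control-768 was used, nor whether the compounds were present during the second stimulation.

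A cell enters mitosis when CDK1, bound to cyclin A or cyclin B, is switched on by CDC25 phosphatases, with the Polo and Aurora kinases acting beside it. The kinetochores then attach chromosomes to the spindle, the spindle checkpoint holds back the anaphase-promoting complex (APC/C) until all are attached, and cytokinesis parts the daughter cells. Most of these genes are transcribed late in the cycle: the MuvB core binds a short element called the CHR in their promoters, represses them as part of the DREAM complex in quiescent and early G1 cells, and activates them with B-MYB and FOXM1 in G2. T cells divide rapidly for days after a first stimulation, so that a culture expanded after priming normally holds many cycling cells.

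The promoters of the genes are shown because so many carry the same short elements. RefSeq promoters on mouse build GRCm38.p6, from 250 bases before to 50 after the listed gene start, were matched by symbol for 33 of the 40 genes, and there was none for Ccna2, Cdc25c, Aurkb, Incenp, Tpx2, Kif20a and Smc4. The letters TTTGAA (the CHR core) and CCAAT (the box bound by NF-Y) were searched for on both strands, and in 1 of the 33 promoters a match of each shared 1 base. TTTGAA occurred in 25 of the 33 promoters (75.8%), against 18.1% of 27025 promoters of all genes. CCAAT occurred in 26 (78.8%), against 37.9% of all promoters, and both together in 22 (66.7%), against 7.12%. In 23 genes a TTTGAA began within 50 bases of the start, as it did in 4.92% of all promoters. The motifs were not particular to the list: 61 promoters of other G2 and mitosis genes held TTTGAA in 52.5%, CCAAT in 65.6% and both in 39.3%. In 39 promoters of DNA replication and S phase genes the shares were 10.3%, 61.5% and 7.69%. Birc5, Mad2l1, Nuf2 and Nusap1 held neither motif in this window. A match is a description of the letters and not evidence of binding. The 5 promoters printed 5′ to 3′ on the strand of the gene stand for the patterns in the expression data below: Cenpf and Ccnb2 fell in every comparison of activated with resting cells, Cdk1 and Cdc20 passed the test in none, and Nusap1 fell while holding neither motif. Capitals mark TTTGAA and CCAAT or their reverse complements.
Cenpf (chr1:189688037-189688336, minus strand): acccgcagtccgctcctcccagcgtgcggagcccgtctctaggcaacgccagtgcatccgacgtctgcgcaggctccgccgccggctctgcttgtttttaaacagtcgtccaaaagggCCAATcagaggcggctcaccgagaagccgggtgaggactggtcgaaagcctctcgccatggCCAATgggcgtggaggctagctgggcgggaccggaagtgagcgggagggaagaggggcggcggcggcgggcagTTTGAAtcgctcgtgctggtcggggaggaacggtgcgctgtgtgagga
Ccnb2 (chr9:70421505-70421804, minus strand): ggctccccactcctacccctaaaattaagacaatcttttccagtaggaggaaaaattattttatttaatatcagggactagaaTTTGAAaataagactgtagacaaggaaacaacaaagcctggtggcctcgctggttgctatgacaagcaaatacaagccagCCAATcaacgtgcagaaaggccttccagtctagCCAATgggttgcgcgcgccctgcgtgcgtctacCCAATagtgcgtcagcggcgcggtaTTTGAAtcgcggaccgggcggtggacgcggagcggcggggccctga
Cdk1 (chr10:69352863-69353162, minus strand): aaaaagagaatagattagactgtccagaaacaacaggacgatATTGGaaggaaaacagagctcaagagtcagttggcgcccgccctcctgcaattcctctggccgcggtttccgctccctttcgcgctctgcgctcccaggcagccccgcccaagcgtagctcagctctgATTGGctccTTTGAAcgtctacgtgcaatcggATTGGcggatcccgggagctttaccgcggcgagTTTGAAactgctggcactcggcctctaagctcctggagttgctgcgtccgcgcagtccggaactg
Cdc20 (chr4:118437294-118437593, minus strand): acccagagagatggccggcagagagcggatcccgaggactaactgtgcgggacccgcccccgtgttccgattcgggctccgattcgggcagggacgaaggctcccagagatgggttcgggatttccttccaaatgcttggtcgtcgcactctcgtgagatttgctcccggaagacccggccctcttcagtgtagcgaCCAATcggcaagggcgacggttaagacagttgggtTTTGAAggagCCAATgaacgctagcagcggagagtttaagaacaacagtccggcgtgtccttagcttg
Nusap1 (chr2:119618048-119618347, plus strand): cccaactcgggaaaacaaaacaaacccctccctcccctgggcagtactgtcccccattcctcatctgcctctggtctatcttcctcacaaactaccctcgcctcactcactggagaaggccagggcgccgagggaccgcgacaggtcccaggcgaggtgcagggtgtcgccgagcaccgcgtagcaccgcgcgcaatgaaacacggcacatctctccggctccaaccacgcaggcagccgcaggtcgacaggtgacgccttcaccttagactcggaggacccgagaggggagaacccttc
With the start as base 0, TTTGAA began at base 2 in Cenpf, at -167 and 4 in Ccnb2, at -71 and -15 in Cdk1 and at -18 in Cdc20. The last of the CCAAT boxes upstream of it began at -71 in Cenpf, -21 in Ccnb2, -48 in Cdk1 and -53 in Cdc20.

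**Figure D1:**
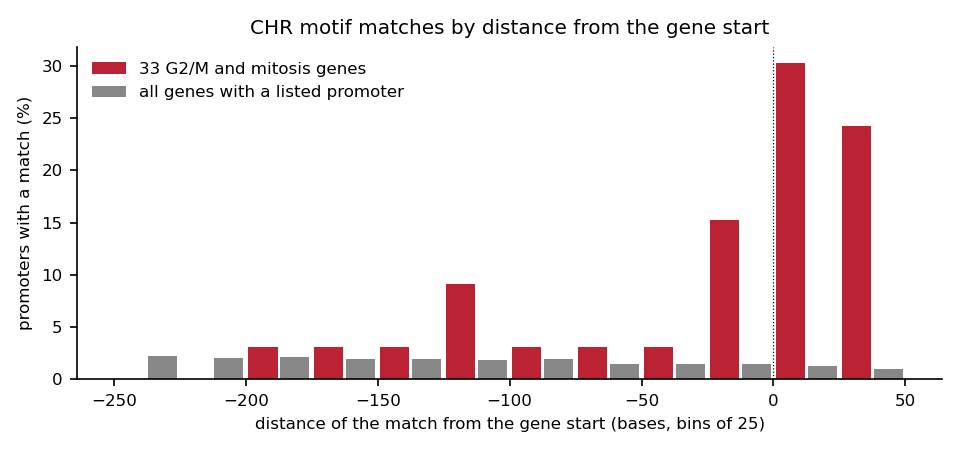
Share of promoters (%, vertical axis) in which TTTGAA, the core of the CHR element, began in each bin of 25 bases (horizontal axis, distance from the gene start), for the 33 G2/M and mitosis genes (left bar) and all genes (right bar). The bins from 0 to 25 and from 25 to 50 held a match in 30.3% and 24.2% of the genes' promoters, against 1.25% and 0.962% of all promoters.

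All arrays had a similar scale, with medians between 37.3 and 44.3 over all probe sets, and the number of arrays limits the precision. One array stood apart for these genes. In the activated cells grown with 0.5 µM I-BET-762, replicate 3 had the lowest value of all 24 arrays for all 39 genes, and 17.4% of all genes had their lowest value there. The 39 genes lay there at a median of -0.87 (log2) against the mean of the other 11 activated arrays, from -2.07 for Nusap1 to -0.34 for Ube2c. The 46 measured S phase genes were also low on it, with a median of -1.0 (log2) relative to each gene's mean over 24 arrays. Its 3′ control probe sets for Gapdh, a sign of RNA quality, exceeded the 5′ ones by 0.31 (log2), the most of all 24 arrays. Those for Actb exceeded the 5′ ones by 0.23, within the 0.18 to 0.37 of the other arrays. For Gapdh the activated arrays numbered 3 of the other groups lay between 0.15 and 0.29, and the remaining activated arrays between -0.017 and 0.099. The part of RNA quality in the results was not tested, and results that rest on this array are given with and without it. Over all genes, deviations from the group mean had an SD of 0.339 on this array. The resting array of the same compound and number had 0.333, and the other arrays 0.17 to 0.29. Of 7 T cell markers, 6 had a value, with a summed intensity of 26581 to 33717 in activated and 28653 to 41046 in resting cells. Of the CD4 T cell markers Cd4 and Cd40lg, Cd4 averaged 501 ± 58.3 in activated and 921 ± 200 (SD, n = 3) in resting Control-768 cells, and Cd40lg 80.7 ± 34.1 and 41.4 ± 3.28. The 4 measured B cell markers summed to at most 69.7 in activated and 79.7 in resting cells, and the 2 NK cell markers to at most 81.6 and 118. The 5 myeloid markers summed to at most 247 and 246, and the 2 erythroid markers to at most 40.4 and 17.6, with Hba-a1 at the floor of 1 in both Control-768 groups. The 5 dendritic cell markers summed to 539 to 1709 in activated and 1441 to 2481 in resting cells, mostly from H2-Ab1, while H2-Aa averaged 41.1 in activated and 37.6 in resting DMSO cells. The 2 CD8 markers summed to 530 to 957 in activated and 412 to 632 in resting cells, and the 3 plasma cell markers to 5106 to 8680 and 4000 to 11418, mostly from Xbp1, which T cells also express. Whether other cell types had a part in the results was not tested.

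After restimulation for 4 hours, between 18 and 35 of the 39 genes had fallen, depending on the compound the cells had been grown with. None had risen by the probe set that stood for each gene. Differences are on the log2(intensity + 16) scale, activated minus resting cells, and a gene counts as changed at a Benjamini-Hochberg adjusted p under 0.05 over all 18193 genes in limma. With DMSO, 27 of the 39 genes fell (11.7% of all genes did) and 0 rose (9.1%). With Control-768, 26 fell (11.2%) and 0 rose (8.86%). With 0.25 µM I-BET-762, 18 fell (7.39%) and 0 rose (7.05%), and with 0.5 µM, 35 fell (12.7%) and 0 rose (10.5%). At an unadjusted p under 0.05 there were 31, 30, 30 and 37 of the 39, all lower. Their median change was -0.64 with DMSO, -0.65 with Control-768, -0.54 with 0.25 µM and -0.95 with 0.5 µM I-BET-762, while the median over all genes lay between -0.029 and -0.018. The 4 comparisons share no arrays but share an estimate of the spread. Same-numbered arrays of a state also varied together across compounds, so the comparisons are not 4 independent repeats, nor the arrays of a state 12 independent ones. The same 16 genes fell in all 4 (6.17% of all genes did), 10 fell in 3, 3 in 2, 6 in 1 and 4 in none. In 29 of the 39 genes every one of the 12 activated arrays lay below every one of the 12 resting arrays, against 7.21% of all genes. In bulk RNA, fewer cells in G2 and mitosis cannot be told apart from less RNA per cell. Without the array that stood apart, 28 genes fell with 0.5 µM, at a median of -0.64, and Aurka, Ccna2, Kif20a, Kif23, Mki67, Smc2 and Top2a no longer passed. In the same fit, 32 fell with DMSO, 31 with Control-768 and 30 with 0.25 µM. With all arrays kept but only the groups compared in the fit, 4 fell with 0.5 µM. The counts leaned on single arrays. The shares of all genes in such runs and at an unadjusted p are not printed here, so these counts are not read as particular to the list. With 0.25 µM the count was 9 without activated replicate 1, 7 without activated replicate 3, 9 without resting replicate 1 and 10 without resting replicate 2. With Control-768 it was 17 and 14 without activated replicates 2 and 3 and 16 without resting replicate 1, and with DMSO 12 without activated replicate 1 and 17 without resting replicate 1. Bub1, Cdc25c, Cenpf and Tpx2 passed the test in all 4 comparisons under every alternative run.

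**Figure D2:**
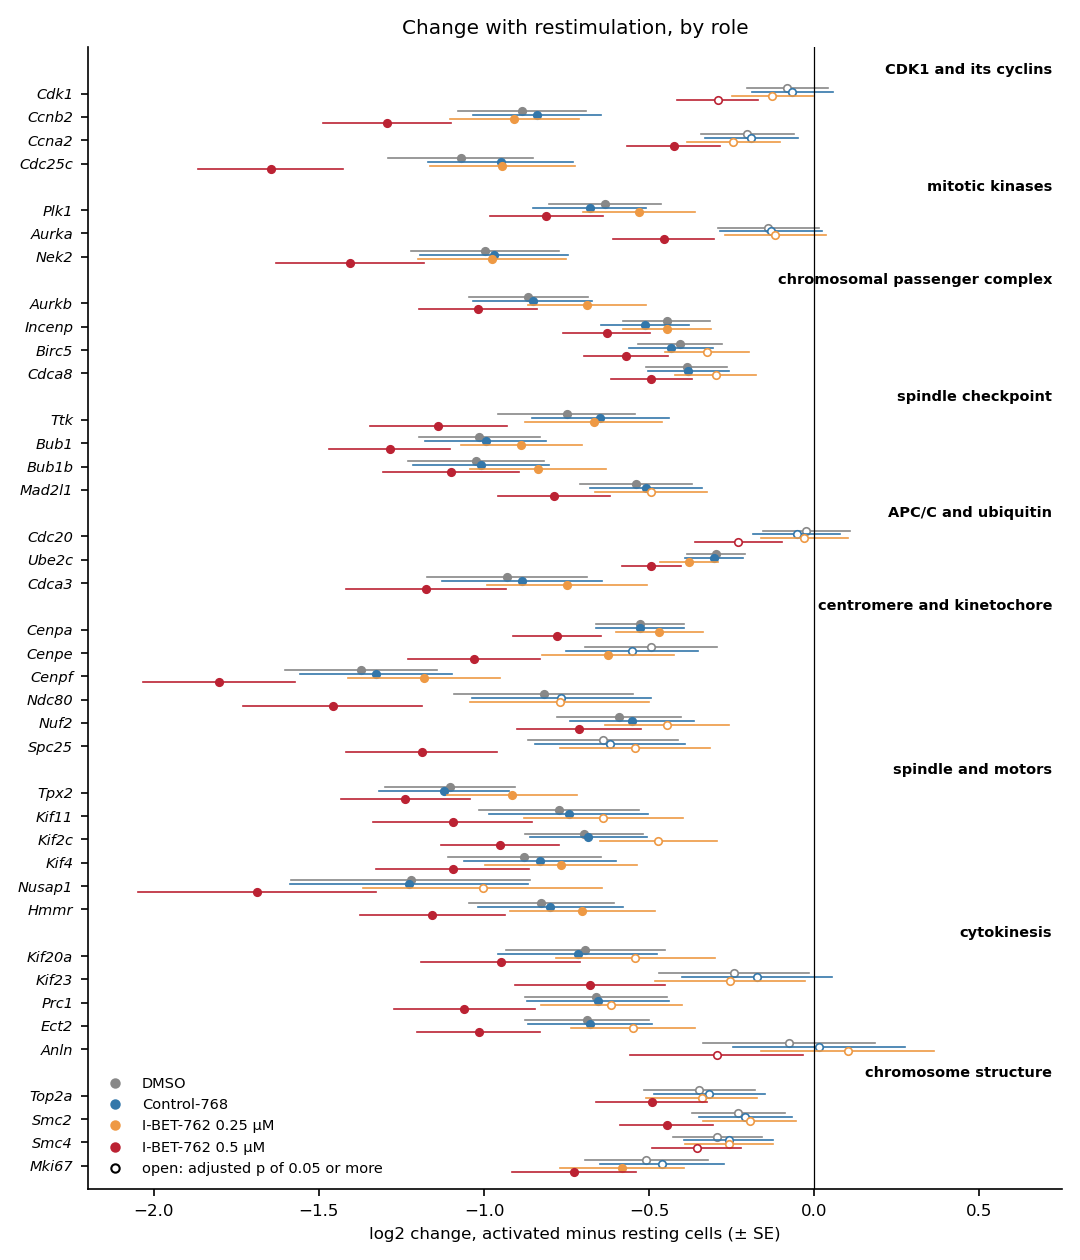
Log2 change of the 39 genes on restimulation (horizontal axis, activated minus resting cells, bars ± SE from the fit over 24 arrays) for each compound, with the genes ordered by role. Filled points passed the adjusted p of 0.05, and most points lie left of 0, while Cdk1, Cdc20, Anln and Smc4 are open for all 4 compounds.

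Of CDK1, its cyclins and its activator, Ccnb2 and Cdc25c fell with all 4 compounds. Cyclin B2, the product of Ccnb2, binds CDK1 in mitosis. Ccnb2 had 2325, 2198 and 2037 on the activated arrays with Control-768, against 4021, 3701 and 4045 on the resting arrays. It ranged over 994 to 2325 (median 2059) over the 12 activated arrays, against 3484 to 4713 (median 3845) over the 12 resting arrays. No activated array reached a resting one, and the change with Control-768 was -0.84 ± 0.19 (SE, adjusted p = 0.00429). Cdc25c, the phosphatase that activates CDK1, had 134, 121 and 108 on the activated arrays and 298, 255 and 199.9 on the resting arrays with Control-768. Its states did not overlap either, and it fell by 1.07 with DMSO, 0.95 with Control-768, 0.95 with 0.25 µM and 1.65 with 0.5 µM I-BET-762 (log2). Cdk1 itself passed the test with no compound. It had 5230.3, 4853 and 4659 on the activated arrays with Control-768, against 5097, 5153 and 5172 on the resting arrays, so that the states overlapped. Its changes were -0.082 with DMSO, -0.066 with Control-768, -0.13 with 0.25 µM and -0.29 with 0.5 µM I-BET-762, (lowest adjusted p = 0.0966). Ccna2 encodes the cyclin A2 of S and G2 phase. It changed by -0.20 with DMSO, -0.19 with Control-768, -0.25 with 0.25 µM and -0.43 with 0.5 µM I-BET-762. It passed only with 0.5 µM (adjusted p = 0.0336 in limma), and not without the array that stood apart. A second probe set for Ccna2 changed by -0.68 with DMSO, -0.65 with Control-768, -0.60 with 0.25 µM and -0.77 with 0.5 µM, and passed in all 4 when adjusted over all probe sets, so the probe sets disagree on Ccna2.

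Of the mitotic kinases, Nek2, a centrosome kinase, and Plk1, the Polo kinase that drives entry into mitosis, fell with all 4 compounds. Nek2 had 1312, 1171 and 1195 on the activated arrays and 2567, 2228 and 2459 on the resting arrays with Control-768. Plk1 had 1340.3, 1051 and 1190.0 on the activated arrays and 1966, 1699 and 2097 on the resting arrays with Control-768. Neither gene overlapped between the states on any of the 24 arrays. The changes were -1.0 with DMSO, -0.97 with Control-768, -0.98 with 0.25 µM and -1.41 with 0.5 µM I-BET-762 for Nek2, and -0.63 with DMSO, -0.68 with Control-768, -0.53 with 0.25 µM and -0.81 with 0.5 µM I-BET-762 for Plk1. Aurka, the Aurora kinase of the spindle poles, overlapped between the states. Its changes were -0.14 with DMSO, -0.13 with Control-768, -0.12 with 0.25 µM and -0.46 with 0.5 µM I-BET-762, and only the last passed (adjusted p = 0.0354). Its activated arrays ran from 823 to 2019.7 and its resting arrays from 1319 to 1931. Without the array that stood apart, its change with 0.5 µM did not pass. With the mean over all its probe sets, the change of Aurka with 0.5 µM turned positive, also without passing.

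The chromosomal passenger complex, which corrects faulty attachments at the centromere and guides cytokinesis, consists of the kinase encoded by Aurkb with Incenp, Birc5 (survivin) and Cdca8 (borealin). All 4 fell with DMSO, with Control-768 and with 0.5 µM I-BET-762, and Aurkb and Incenp also fell with 0.25 µM. Aurkb had the largest change of the complex. It had 1537, 1487 and 1404 on the activated arrays, against 2643, 2699.8 and 2691 on the resting arrays with Control-768, and it changed by -0.87 with DMSO, -0.85 with Control-768, -0.69 with 0.25 µM and -1.02 with 0.5 µM I-BET-762. Incenp, Birc5 and Cdca8 changed less, by between -0.51 and -0.38 with Control-768, although no activated array of these genes reached a resting one.

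The 4 genes of the spindle checkpoint fell with DMSO, Control-768 and 0.5 µM I-BET-762, and 3 of them, all but Mad2l1, with 0.25 µM. Bub1 and Bub1b encode checkpoint proteins of the kinetochore, Ttk the kinase MPS1 that starts the signal, and Mad2l1 the inhibitor MAD2 that binds CDC20. Bub1 had 1304, 1313 and 1441 on the activated arrays, against 2854, 2965 and 2347 on the resting arrays with Control-768. With 0.5 µM I-BET-762 it had 1561, 1561 and 845 on the activated arrays, against 2992, 2886 and 3537 on the resting arrays. The states were clear of each other in both, and the changes were -0.99 ± 0.18 and -1.29 ± 0.18 (SE, adjusted p = 0.000767 and 6.09e-05). Bub1b fell to a similar degree with Control-768, by 1.01 ± 0.21 (log2), and Ttk and Mad2l1 changed by -0.65 and -0.51.

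Of the 3 genes of APC/C-driven destruction, Ube2c and Cdca3 fell with all 4 compounds and Cdc20 passed with none. Cdc20, the activator of the APC/C in mitosis, had 4940.0, 4998 and 5857 on the activated arrays and 5114, 5261 and 6009 on the resting arrays with Control-768. The states overlapped, and its changes were -0.024 with DMSO, -0.054 with Control-768, -0.031 with 0.25 µM and -0.23 with 0.5 µM I-BET-762, none of which passed. The interval of the Control-768 change ran from -0.33 to 0.22. Ube2c, the ubiquitin-conjugating enzyme of the APC/C, fell with all 4 compounds, by a smaller amount. It had 5234, 4606 and 4759.5 on the activated arrays, against 6157, 6014 and 5832 on the resting arrays with Control-768, a change of -0.30 ± 0.088 (SE, adjusted p = 0.019). Cdca3, also called TOME-1, a trigger of mitotic entry, fell with all 4, by 0.88 ± 0.24 with Control-768 and by 1.18 ± 0.24 with 0.5 µM. With the mean over all its probe sets, the change of Cdca3 with 0.25 µM turned positive without passing. Its fall with 0.25 µM thus depends on the probe sets used.

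The largest fall in the list was at the kinetochore, in Cenpf, which encodes a large protein that accumulates in G2 and binds the outer kinetochore. Cenpf had 477, 424 and 430.0 on the activated arrays, against 1271, 1223 and 942 on the resting arrays with Control-768. It ranged over 200.1 to 501 (median 435) over the 12 activated arrays, against 907 to 1671 (median 1112) over the 12 resting arrays. The gap between the states exceeded the whole range of the activated arrays, and the changes were -1.37 with DMSO, -1.33 with Control-768, -1.18 with 0.25 µM and -1.80 with 0.5 µM I-BET-762, with adjusted p-values of 0.000349, 0.000469, 0.0021 and 2.7e-05. Cenpa, the histone variant that marks the centromere, fell with all 4 compounds, by 0.53 ± 0.13 with Control-768. Ndc80, Nuf2 and Spc25 encode 3 subunits of the NDC80 complex, which holds the microtubule end. Their changes with Control-768 were -0.77, -0.55 and -0.62, of which that of Nuf2 passed the test (adjusted p = 0.042) and those of Ndc80 and Spc25 did not (0.052 and 0.0625). No activated array of these 3 genes reached a resting one. Cenpe, a kinetochore motor, changed by -0.55 with Control-768 (adjusted p = 0.0583), and its resting values spread widely, from 1339 to 2576.

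All 6 spindle genes fell with DMSO, Control-768 and 0.5 µM I-BET-762. Tpx2, the activator of Aurora A on the spindle, had 1018, 788 and 737 on the activated arrays, against 2071, 1727 and 1756 on the resting arrays with Control-768. Nusap1, which bundles spindle microtubules, had 2110.2, 2309.8 and 1875 on the activated arrays and 4938, 4589 and 5239 on the resting arrays with Control-768. Both were clear of overlap, with changes of -1.12 ± 0.20 for Tpx2 and -1.23 ± 0.36 for Nusap1 (SE, adjusted p = 0.00051 and 0.0201). On the activated array that stood apart Nusap1 had 510.1, against 2234 and 2588 on the other arrays of its group. Kif4, a chromosome-bound motor, and Hmmr, a spindle assembly factor that is also a hyaluronan receptor, fell with all 4 compounds, by 0.83 ± 0.23 and 0.80 ± 0.22 with Control-768. Kif11, the motor that separates the spindle poles, changed by -0.77 with DMSO, -0.74 with Control-768, -0.64 with 0.25 µM and -1.09 with 0.5 µM I-BET-762, and Kif2c, which depolymerises microtubules, by -0.70 with DMSO, -0.68 with Control-768, -0.47 with 0.25 µM and -0.95 with 0.5 µM I-BET-762. For Kif11, Kif2c and Nusap1 the change with 0.25 µM did not pass.

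Among the cytokinesis genes, Ect2, the exchange factor that switches on RhoA at the cleavage site, Prc1, which bundles the midzone, and Kif20a, a midzone motor, fell with DMSO, Control-768 and 0.5 µM. Their changes with Control-768 were -0.68, -0.65 and -0.72, and none of the 5 genes of this role passed with 0.25 µM. Kif23, the kinesin of centralspindlin, passed only with 0.5 µM (-0.68, adjusted p = 0.0353 in limma), and not without the array that stood apart. Anln encodes anillin, the scaffold of the contractile ring, and overlapped between the states. It had 1162, 1095 and 1379 on the activated arrays and 1006, 1089 and 1554 on the resting arrays with Control-768, with replicate 3 high in both states. Its changes were -0.077 with DMSO, 0.014 with Control-768, 0.10 with 0.25 µM and -0.30 with 0.5 µM I-BET-762, and none passed.

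The 4 genes of chromosome structure are Top2a (topoisomerase II), Smc2 and Smc4 (condensin) and Mki67 (Ki-67, which coats mitotic chromosomes and marks cycling cells). None passed with DMSO or Control-768 (2 and 1 at an unadjusted p under 0.05), although no activated array of Top2a or Mki67 reached a resting one. Mki67 had 5210.1, 4391 and 4314 on the activated arrays, against 6533, 6083 and 6506 on the resting arrays with Control-768. Its changes were -0.51 with DMSO, -0.46 with Control-768, -0.58 with 0.25 µM and -0.73 with 0.5 µM I-BET-762, and the last 2 passed (adjusted p = 0.0428 and 0.00731). Top2a and Smc2 passed only with 0.5 µM, at -0.49 and -0.45, and Smc4 in none. Without the array that stood apart, Top2a, Smc2 and Mki67 did not pass with 0.5 µM. A dimmer second probe set of Top2a went the other way, at 0.82 with Control-768, so the direction of Top2a depends on the probe set. With every array's median set to 0, the changes of Cdk1 and Cdc20 with DMSO and Control-768, that of Cdc20 with 0.25 µM and that of Anln with DMSO turned positive, without passing. The 27 genes with several probe sets had 52 further probe sets. With DMSO, Control-768, 0.25 µM and 0.5 µM, 39, 36, 36 and 40 of them were lower in activated cells, and 13, 16, 16 and 11 higher. When adjusted over all probe sets, 17, 16, 12 and 25 passed as lower and 0, 0, 1 and 0 as higher, in the same order. The shares over all probe sets are not printed here.

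**Figure D3:**
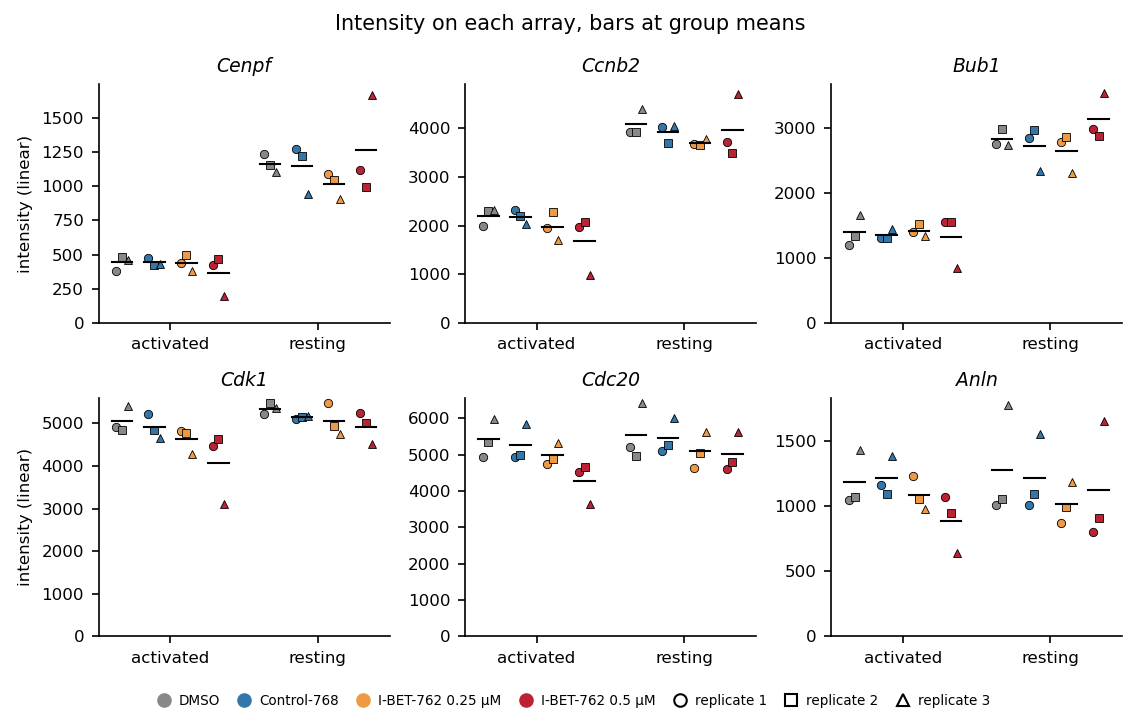
Intensity (linear scale) on each of the 24 arrays for 3 genes that fell with all 4 compounds (Cenpf, Ccnb2, Bub1) and 3 that passed with none (Cdk1, Cdc20, Anln), with bars at the group means and a marker shape for each replicate number. In the upper row the activated arrays all lie below the resting ones, in the lower row the states overlap, and replicate 3 of the activated 0.5 µM I-BET-762 group is the lowest point in every panel.

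Genes with and without TTTGAA in their promoters both fell. Of the 25 genes with TTTGAA, 15 fell with Control-768, with changes from -1.33 to 0.014 and a median of -0.65. Of the 7 measured genes without it, 6 fell, with changes from -1.23 to -0.43 and a median of -0.55. Cdk1 and Cdc20, printed above with TTTGAA close to their starts, did not pass with any compound, and Nusap1, with neither motif, changed by -1.23. These are counts over the list, without a test.

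Other genes of G2 and mitosis, chosen as 74 further genes of which 72 had a value, mostly fell where they passed. With Control-768, 27 fell and 3 rose, at a median of -0.54. The 4 with the smallest adjusted p were Depdc1b, Pimreg, Cdc25b and Nek6. Depdc1b, a mitotic DEP-domain protein, had 108 ± 30.2 in activated and 487 ± 5.12 in resting Control-768 cells (SD, n = 3), a change of -2.05. Pimreg changed by -2.01 and Cdc25b, another phosphatase of CDK1, by -1.40, while Nek6, a mitotic kinase, rose by 2.51 (adjusted p = 1.29e-05). For the next lists, 11.2% of all genes fell and 8.86% rose in the same comparison. Of 46 measured genes of DNA replication and S phase 5 fell and 2 rose with Control-768, no larger a share than over all genes, at a median of -0.19. Those named by the rule were Pold1, Prim2, Rfc2 and Ccne2: Pold1, Prim2 and Rfc2, of the replication machinery, fell by 0.91, 0.97 and 0.67, and Ccne2, a G1/S cyclin, rose by 1.21. Of 16 APC/C subunits 2 fell, Anapc2 at -0.61 and Anapc11 at -0.54, and 0 rose (3 had an unadjusted p under 0.05), a share near that over all genes. The difference between these lists was not tested.

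Of 23 genes of DREAM, MuvB and FOXM1, the regulators of CHR-bearing promoters, 3 fell and 5 rose with Control-768, at a median of -0.066. Of all genes 11.2% fell and 8.86% rose. The share of the list that fell was near that over all genes, and the share that rose was larger, a difference that was not tested. Foxm1, the G2 activator, had 145 ± 23.9 in activated and 270.4 ± 36.6 in resting Control-768 cells (SD, n = 3). It fell with DMSO, Control-768 and 0.5 µM, by 0.91, 0.83 and 1.04 (adjusted p = 0.0105, 0.0181 and 0.00319), and with 0.25 µM its change of -0.57 did not pass. Mybl2, which encodes B-MYB, had 425 ± 37.1 and 419 ± 85.7, a change of 0.035 ± 0.30 that did not pass. Rbl2, the p130 pocket protein of DREAM, fell by 1.30 with Control-768 and with all the other compounds, and Rb1, the retinoblastoma protein, by 0.92. E2f5, a repressor E2F, and Lin9, a MuvB subunit, rose by 1.17 and 0.61. E2f4, the E2F most often found in DREAM, and Cdkn1a, the CDK inhibitor p21, changed by -0.18 ± 0.14 and 0.27 ± 0.19, which did not pass.

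No gene of the 39 passed the test between I-BET-762 and Control-768, in either state and at either concentration, in the fit without a block. With the replicate number as a block within each state, 1 did, Aurka with 0.5 µM in activated cells. The fit without a block ignores the pairing of same-numbered arrays within a state. Its lack of calls does not show that no gene differed. The counts and shares that follow are from that fit. Compared with Control-768 in activated cells, 0 of 39 passed with 0.5 µM (0.726% of all genes did) and 0 with 0.25 µM (0.0715%). In resting cells 0 passed with 0.5 µM (1.41% of all genes) and 0 with 0.25 µM (0.066%). At an unadjusted p under 0.05 in limma there were 6 genes with 0.5 µM in activated cells and 0 in the other 3 comparisons. The median difference was -0.29 with 0.5 µM and -0.0067 with 0.25 µM in activated cells, and -0.023 and -0.063 in resting cells. The 95% interval of a single gene reached a median of 0.39 (log2) to either side. The negative median with 0.5 µM in activated cells rested on the array that stood apart: with arrays of the same number set against each other, the medians were -0.10, 0.10 and -0.81 for replicates 1, 2 and 3, and the 39 genes were lower in 27, 10 and 39. Without that array the median was 0.0029 and 0 genes passed (limma). In the resting cells of the same compound and number, the genes were not low, at a median difference of 0.046 from Control-768, although S phase genes were low there, at a median of -0.26 relative to each gene's mean over 24 arrays. On that resting array Cenpf, at 1671, and Cenpa, at 5732, had their highest value of all 24 arrays. So did Ccnb2, Cdc25c, Birc5, Cdca3, Ttk, Bub1, Cenpe and Kif23, while the other genes of the list peaked on other arrays. Against the resting 0.25 µM array of the same number the median difference was 0.15, with 3 of the 39 genes lower. That resting array also enters the falls with 0.5 µM on restimulation.

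**Figure D4:**
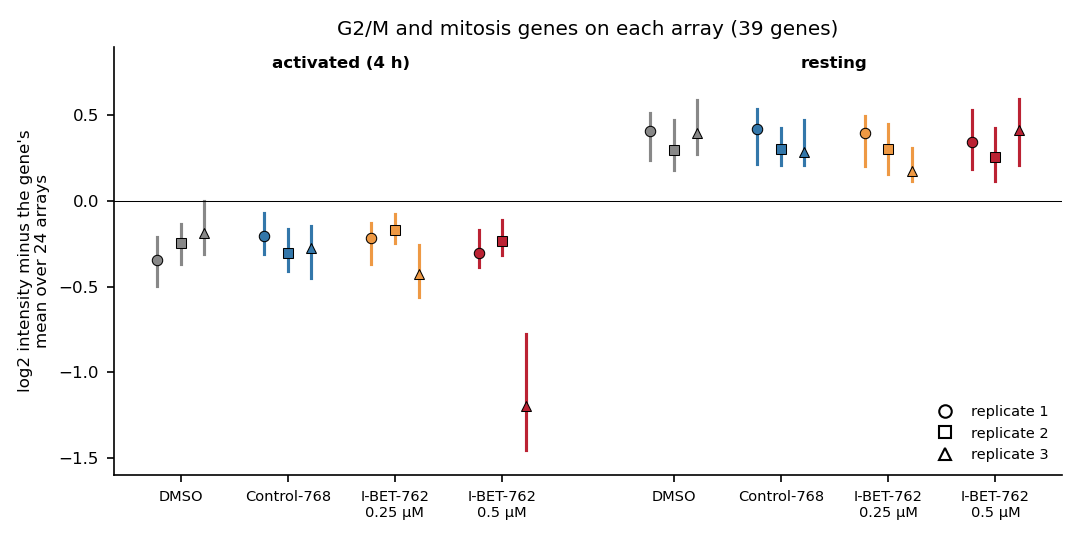
Median of the 39 genes on each array (points, bars from the lower to the upper quartile over genes), as log2(intensity + 16) minus each gene's mean over 24 arrays, for activated cells (left) and resting cells (right). The activated array of 0.5 µM I-BET-762 numbered 3 lies at -1.20, the other 11 activated arrays between -0.43 and -0.17, and the resting arrays between 0.18 and 0.42.

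In 5 of the 39 genes every activated array with 0.5 µM I-BET-762 lay below every Control-768 array (6.15% of all genes), namely Aurka, Ube2c, Cdk1, Cdc20 and Anln. Aurka had 1242, 1155 and 823 on the activated arrays with 0.5 µM, against 1642, 1365 and 1819 with Control-768. The groups did not overlap, and the difference was -0.59 ± 0.15 (SE, adjusted p = 0.0912, 95% interval -0.91 to -0.27). With the replicate number as a block within each state, the adjusted p of Aurka was 0.0425 (limma), and it was then the only one of the 39 to pass. Of all genes 3.35% passed with this block, against 0.726% without it. Over the 18 alternatives the adjusted p of Aurka ran from 0.0425 to 0.84, and without the array that stood apart its difference was -0.41 (adjusted p = 0.385). Ube2c had 4086, 4186 and 3626 with 0.5 µM, against 5234, 4606 and 4759.5 with Control-768, again without overlap, and differed by -0.29 ± 0.088 (adjusted p = 0.191), or by -0.23 without that array (adjusted p = 0.482). Cdk1 had 4477, 4622 and 3114 with 0.5 µM, against 5230.3, 4853 and 4659 with Control-768, and its difference of -0.29 ± 0.12 did not pass (adjusted p = 0.519). In resting cells Aurka had 1606, 1459 and 1319 with 0.5 µM, against 1759, 1661 and 1838 with Control-768, also without overlap, a difference of -0.26 ± 0.15 that did not pass (adjusted p = 0.593).

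**Figure D5:**
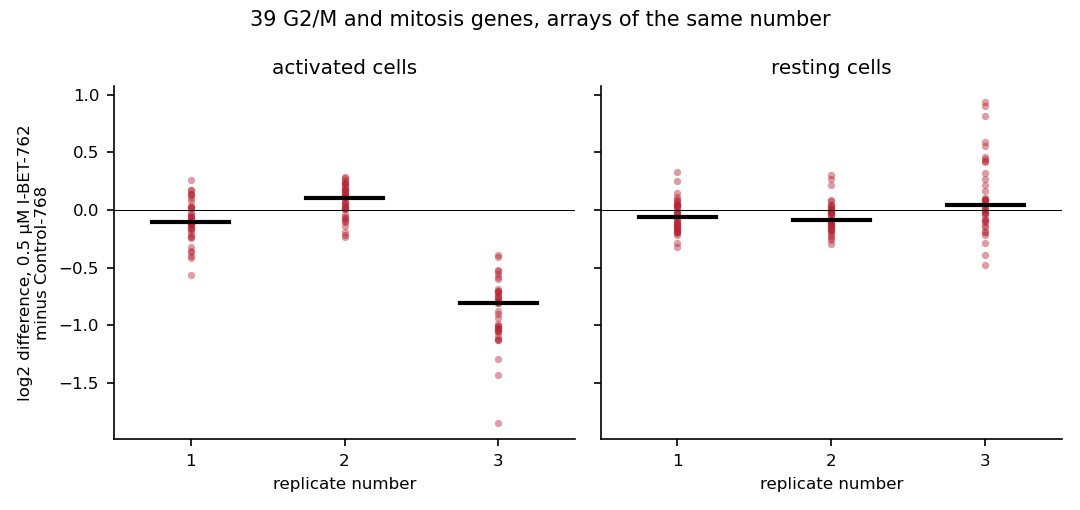
Log2 difference between 0.5 µM I-BET-762 and Control-768 on arrays of the same replicate number (horizontal axis) for the 39 genes (points) with their median (bars), in activated (left) and resting cells (right). In activated cells replicate 3 has a median of -0.81, against -0.10 and 0.10 in replicates 1 and 2, and in resting cells the 3 medians lie between -0.087 and 0.046.

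The step from 0.25 to 0.5 µM gave 0 genes past the test in activated cells (0.011% of all genes passed, and 3 of the 39 had an unadjusted p under 0.05) and 0 in resting cells (0.066%, and 0 unadjusted). The median step was -0.30 in activated and 0.035 in resting cells, and it was 0.018 in activated cells without the array that stood apart. Both concentrations pooled against both controls gave 0 in activated cells (1.2%, with 7 of the 39 unadjusted) and 0 in resting cells (1.85%, with 0 unadjusted), at medians of -0.17 and -0.065. Control-768 against DMSO gave 0 of the 39, and 0 of all genes (0%), in either state, where 300 genes in activated and 428 in resting cells, none of them among the 39, had an unadjusted p under 0.05. Whether restimulation changed the genes to a different degree with I-BET-762 than with Control-768 was tested by interaction terms. None of the 39, and 0% of all genes, passed at 0.5 µM (1 unadjusted), at 0.25 µM (0) or for both pooled against both controls (0). The tests of this paragraph, and their shares of all genes, are from the fit without a block. With the replicate number as a block, none of the 39 passed in these comparisons either. The median interaction was -0.27 at 0.5 µM, and in same-numbered arrays it was -0.011, 0.17 and -0.93. No pairing across the states was assumed, so the values by number are a description and not matched units. The fall with 0.5 µM, where 35 genes passed, is thus not shown to differ from that with Control-768, where 26 passed.

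The 39 genes varied together to differing degrees within groups. With each array set against its group mean, the correlation of a gene with the mean of the other 38 over 24 arrays was highest for Nek2 (0.98) and lowest for Anln (0.44) and Cdc20 (0.44), a description that the array that stood apart weighs on. The 6 genes outside the list with the most similar pattern over 24 arrays, by Pearson correlation with the members' mean standardized level, were Kif22, Spag5, Tceal9, Asf1b, Ckap2l and Lbr. That measure spans both states, which form separate clusters, so it is given within each state. Over the 11 activated arrays that remain without the array that stood apart it was 0.93 for Spag5, a spindle protein, 0.77 for Asf1b, a histone chaperone, 0.73 for Kif22, a chromosome motor, and 0.66 for Ckap2l. Over the 12 resting arrays it was 0.85 for Spag5, 0.099 for Asf1b, 0.65 for Kif22 and 0.47 for Ckap2l. Tceal9 and Lbr, the lamin B receptor, had 0.40 and 0.32 over the 11 activated arrays and 0.38 and 0.67 over the 12 resting arrays. Same-numbered arrays of a state varied together, and no test was made of these values.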

How the data were processed

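Per the labels' protocols, RNA was extracted from the cells, amplified for 2 rounds, biotin labelled and hybridized. The authors deposited an intensity, linear in scale, for each of 45101 probe sets; the summary and normalization behind it are not given in the sources used. From these, log2(intensity + 16) was computed, which compresses changes of dim genes, and the brightest probe set by mean stood for each gene, among the 34945 that name 1 symbol (932 name several and 9160 none, and 64 control probe sets were left out), giving 18193 genes. All 24 arrays entered 1 model of 8 group means in limma 3.58.1 (R 4.3.3; 16 residual and 3.59 prior degrees of freedom) with 17 contrasts, two-sided, and Benjamini-Hochberg adjustment over all genes. Same-numbered arrays of a state deviated from their group means together (all 12 pairs of each number over 0.1, the lowest 0.15), so the number pairs arrays within a state. Across the states 9, 0 and 7 of 16 same-numbered pairs were over 0.1 (medians 0.11, 0.029 and 0.092 for numbers 1, 2 and 3, lowest -0.048), which does not meet the criterion of every pair over 0.1, so no pairing across states was assumed. The list of members, the other lists and the tests were chosen with earlier results of these data known. Beside the 40 members, up to 4 genes of each other list are named, those of smallest adjusted p among the calls of the Control-768 restimulation comparison, with Foxm1, Mybl2, Rbl2, E2f4 and Cdkn1a whatever their values and the 6 most similar genes. Alternatives varied the added constant, the dim filter, probe choice, scaling, moderation, blocking and the arrays included.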

Additional observations from a re-analysis of the deposited data

How the results depend on the processing

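Leaving out 1 array of a group compared gave 12 to 20 genes that fell on restimulation with DMSO, 14 to 20 with Control-768, 7 to 14 with 0.25 µM and 28 to 37 with 0.5 µM I-BET-762, and leaving out all arrays numbered 3 gave 32, 31, 31 and 30. Neither gave any in the comparisons between compounds. The counts of this section are given without the shares of all genes in the same runs, and describe the list alone. Fitted on only the groups compared, the count was 26 with DMSO, 27 with Control-768, 22 with 0.25 µM and 4 with 0.5 µM. The activated 0.5 µM group, with the array that stood apart, had the widest spread (SD 0.54 of the array medians of the 39 genes); the cause of the drop was not tested. Leaving the array that stood apart out of the shared fit, an alternative chosen after seeing the data, gave 30 with 0.25 µM, and the remaining alternatives left the restimulation counts within 1.5 times. With the replicate number as a block over both states, the counts were 29, 29, 23 and 36. In activated cells 0.5 µM against Control-768 gave 1 gene in place of 0 with an intensity trend or a constant of 64 (Ube2c) and with the replicate block within each state or over both (Aurka). The pooled comparison in activated cells gave 1 (Ube2c) with the dim filter, the trend or a constant of 64, and the blocks changed no other count between compounds. With the mean over all probe sets of a gene, 3 changes that had passed turned positive without passing: Aurka (0.075) and Top2a (0.014) with 0.5 µM and Cdca3 (0.13) with 0.25 µM. Further probe sets are dimmer by the rule of choice, since the brightest stood for each gene. Of the 52 further probe sets of the list, 41 had a mean intensity of at least 50. Whether dimness had a part in these changes was not tested.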
